A study of Mus musculus with 6 samples.

Results

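The genes described here are 44 regulators and structural proteins of mitosis, from the cyclins and kinases that start it to the motors and scaffolds that end it. They were taken from a fixed list of symbols, and 43 of the 44 were found in the probe annotation and tested, among 12837 genes tested in all. Cyclin B1 (Ccnb1) is the member that no probe set of a single gene names in the annotation used here, so it has no value. Each gene is read by its brightest probe set, and all 43 lay above the 40th percentile of intensity on 6 of 6 arrays, so the filter on dim probe sets selected none of them by group.

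The arrays were hybridised with RNA from mouse bone marrow cells sorted as lineage negative, cKit+ and Sca1-, which the labels call myeloerythroid progenitors. The ICN2 positive group was Rosa-lsl-ICN2 Mx1-cre+ and male. The ICN2 negative group was littermates labelled Mx1-cre+ alone, and all were female. Both groups had 3 arrays, both were 6 weeks old, and both carried the Mx1-cre recombinase and had received 3 doses of polyIC at 20 mcg per g, the last 1 week earlier. ICN2 is the intracellular part of the Notch2 receptor, which signals without ligand, and the cre removes a stop cassette in front of it. Mx1-cre is switched on by interferon in many cell types, so the allele is not limited to the sorted cells. Sex and genotype cannot be told apart in any comparison below. The labels do not say that replicates were separate animals, and the p-values then measure the spread between these samples only. The number of arrays limits the precision. The array of ICN2 positive replicate 1 was unlike the others of its genotype. Across all probe sets but the controls (log2) it correlated at 0.984 with replicate 2 and at 0.988 with replicate 3, which correlated with each other at 0.9945, so the main results are given with and without it.

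Mitosis is driven by cyclin-dependent kinase 1, which is active only when bound to a cyclin and freed of inhibitory phosphate by Cdc25 phosphatases. The spindle checkpoint then holds the cell in metaphase until every kinetochore is attached, after which the anaphase-promoting complex marks securin and cyclin B for destruction. The genes of this programme are transcribed late in the cell cycle, in dividing cells, and many share a promoter element called the CHR, bound by the MuvB complex with B-Myb and FoxM1, together with CCAAT boxes bound by NF-Y. In bone marrow these genes mark the cycling progenitors.

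Promoter sequences are shown because both elements were frequent in the members' promoters. RefSeq promoter windows (GRCm38.p6, 250 bases before to 50 after the gene start) were held in the table used here for 36 of the 44 members. These 36 genes had 39 windows, since Bub3, Prc1 and Ect2 have 2 overlapping ones each, in which the same matches count again. The CHR core TTTGAA, searched with its reverse complement TTCAAA, was found in 30 of the 39 (76.9%), against 17.9% of all 32851 windows of the table. CCAAT, searched with its reverse complement ATTGG, was also found in 30 of the 39 (76.9%), against 37.4% of all windows. Both stood in the same window in 26 of the 39 (66.7%), against 6.95% of all windows. The matches of one motif never overlapped those of the other in the members' windows. A match is a description of the letters and not of bound protein. The 120 bases before the start of 8 members are printed 5′ to 3′ on the gene's strand, with matches to either motif in capitals. Cdk1, Ccnb2, Ccnb1, Plk1, Cdc20 and Birc5 are shown as core regulators, and Ube2c and Top2a were added after their matches were seen.
Cdk1, chr10:69352913-69353032, minus strand: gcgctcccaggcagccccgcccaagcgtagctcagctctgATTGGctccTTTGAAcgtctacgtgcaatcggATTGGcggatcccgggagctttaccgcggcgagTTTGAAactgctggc
Ccnb2, chr9:70421555-70421674, minus strand: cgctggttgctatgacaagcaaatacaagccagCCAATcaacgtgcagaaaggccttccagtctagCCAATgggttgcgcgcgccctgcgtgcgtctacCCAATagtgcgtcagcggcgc
Ccnb1, chr13:100786487-100786606, minus strand: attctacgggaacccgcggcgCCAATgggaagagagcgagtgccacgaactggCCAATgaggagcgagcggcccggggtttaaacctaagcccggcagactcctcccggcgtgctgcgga
Plk1, chr7:122159315-122159434, plus strand: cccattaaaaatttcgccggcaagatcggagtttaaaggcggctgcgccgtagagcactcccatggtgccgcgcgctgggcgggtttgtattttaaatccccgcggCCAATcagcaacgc
Cdc20, chr4:118437344-118437463, minus strand: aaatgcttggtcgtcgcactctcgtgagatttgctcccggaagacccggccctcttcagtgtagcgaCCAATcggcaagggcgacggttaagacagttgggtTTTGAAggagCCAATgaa
Ube2c, chr2:164769809-164769928, plus strand: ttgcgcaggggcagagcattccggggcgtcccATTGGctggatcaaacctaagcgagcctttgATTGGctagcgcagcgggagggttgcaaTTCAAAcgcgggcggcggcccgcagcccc
Birc5, chr11:117849117-117849236, plus strand: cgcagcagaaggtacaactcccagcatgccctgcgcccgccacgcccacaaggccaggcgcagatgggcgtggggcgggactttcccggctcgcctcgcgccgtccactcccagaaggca
Top2a, chr11:99024190-99024309, minus strand: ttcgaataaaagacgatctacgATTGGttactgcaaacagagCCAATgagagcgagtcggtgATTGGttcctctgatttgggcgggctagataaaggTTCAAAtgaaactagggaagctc
Cdk1 has 2 CHR cores before its start, at -71 and -15 bases, each downstream of a CCAAT match. In the printed stretch the core lies at -18 in Cdc20, at -29 in Ube2c and at -23 in Top2a. Ccnb2 and Plk1 have no core in the printed stretch, and in their windows one lies after the start, at 5 bases in Ccnb2 and at 31 in Plk1. Ccnb2 and Top2a each have a further core before the printed stretch, at -167 and -179. Ccnb1 has only CCAAT matches and Birc5 has neither motif in its window.

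**Figure D1:**
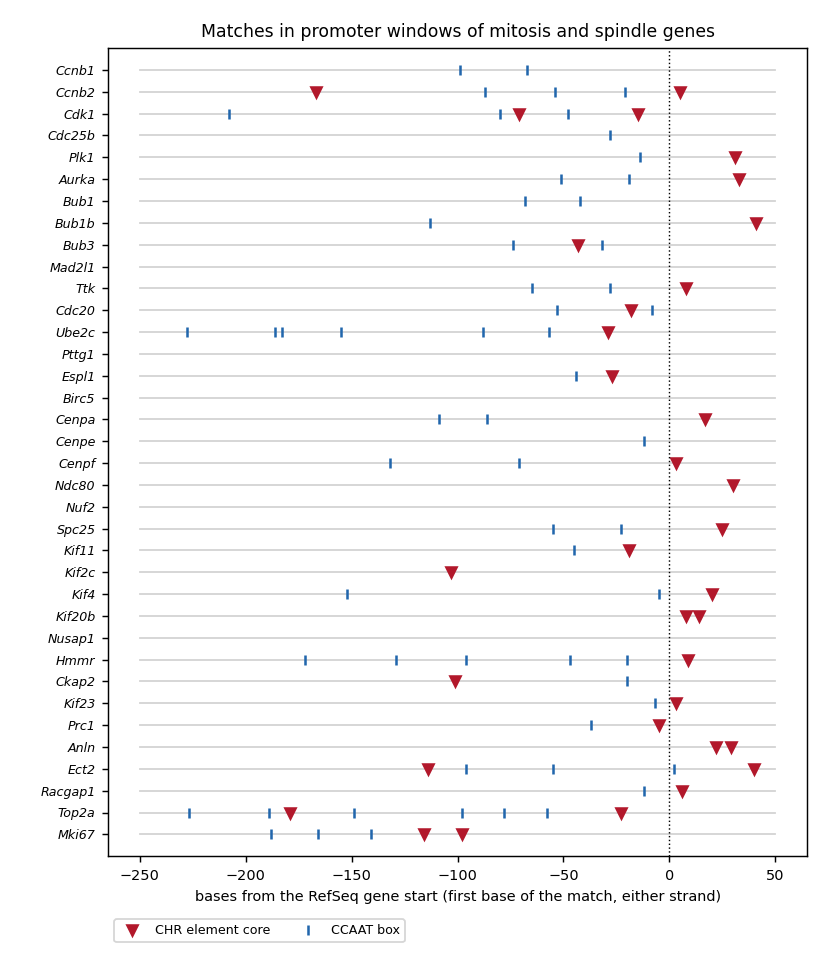
Positions of CHR core matches (red triangles) and CCAAT matches (blue bars) in the RefSeq promoter windows of 36 members, 1 row and 1 window a gene, with bases from the gene start on the horizontal axis. Of these genes 27 have a CHR core and 27 a CCAAT match on either strand, and 23 have both motifs in their windows.

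None of the 43 mitosis and spindle genes differed between ICN2 positive and ICN2 negative progenitors at an adjusted p of 0.05 in limma, adjusted over all genes. Over all 12837 genes the share that passed was 4.36%, with 2.59% higher and 1.78% lower in ICN2 positive cells. Differences ran from -0.24 for Nusap1 to 0.40 for Plk1 on the log2 scale, which is 0.844-fold to 1.32-fold, and 37 of 43 were smaller than 0.25 in size, as were 61.5% of all genes. At an unadjusted p under 0.05 there were 2 of 43 members (4.65%), Kif20a and Nusap1, against 27.4% of all genes. With array weights, which reduce the part of arrays that fit poorly, these 2 genes passed, when 25.4% of all genes did. The 3 values of each group did not overlap for 7 of 43 members (16.3%), against 37.5% of all genes. The means were higher in ICN2 positive cells for 25 members (58.1%) and lower for 18, while 53.0% of all genes tested had higher means. The median difference of the members was 0.06, beside 0.02 over all genes tested.

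Missing the threshold does not by itself show that the genes were alike, so the 95% interval of each difference was computed from the same fit. The interval lay within a 2-fold change in either direction for 42 of 43 members, and for 81.1% of all genes. The exception was Cenpf, whose interval reached 1.27 on the log2 scale. Within 1.41-fold in either direction lay 29 of 43 members, and 50.9% of all genes. These intervals are those of the brightest probe set of each gene, and dimmer ones could differ more or less. The differences of single tested probe sets ran from -0.48 (Bub3) to 0.66 (Kif2c). In bulk RNA, fewer dividing cells and less RNA per dividing cell cannot be told apart. RMA also gives all arrays nearly the same distribution, so a change in the total RNA of a cell would not be seen.

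ICN2 positive replicate 1 held the highest of the 6 values for 36 of 43 members (83.7%), against 31.9% of all genes, and the lowest value for none. The median member lay 0.29 above the ICN2 negative mean on that array, and at -0.04 and -0.07 in ICN2 positive replicates 2 and 3. The ICN2 negative arrays lay at 0.04, -0.01 and -0.02. The SD within the ICN2 positive group was the larger one for 40 of 43 members, with a median of 0.21 in ICN2 positive and 0.07 in ICN2 negative cells. Over all genes tested it was the larger one for 8190 of 12837, with medians of 0.15 and 0.12. Without ICN2 positive replicate 1 no member passed either, when 5.98% of all genes did, and the median difference was -0.06 with 16 means higher and 27 lower. The signs of 9 members differed between the fits with and without it, which were Aurka, Bub3, Ttk, Ube2c, Aurkb, Cenpf, Prc1, Anln and Racgap1. The intervals of all 43 then lay within 2-fold, and those of 40 within 1.41-fold, against 84.7% and 54.0% of all genes.

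Marker genes and controls were read on the same arrays. Sums of linear intensity weigh the brightest genes of a list most. Of 9 marker genes of granulocyte-monocyte progenitors 8 were tested, all with lower means in ICN2 positive cells. None of the 8 passed on all arrays. Without ICN2 positive replicate 1, 6 of the 8 passed, all lower, when 5.98% of all genes passed in either direction. The intensities of the 8 summed to 8629 in ICN2 positive replicate 1 and to 51500 and 47170 in replicates 2 and 3. In ICN2 negative cells they summed to 70590 to 78250. The 6 mast cell and basophil markers summed to 2744 in replicate 1, to 22580 and 18710 in the other ICN2 positive arrays, and to 9728 to 13900 in ICN2 negative cells. Among these markers the mast cell protease gene Mcpt4 passed the test and had the other order, at 8.70, 8.65 and 6.97 (log2 intensity) in ICN2 positive cells, against 3.20, 3.76 and 4.19 in ICN2 negative cells. Its values were high on all ICN2 positive arrays, replicate 1 included. The protease gene Cma1 lay at 6.57, 6.92 and 6.16 in ICN2 positive cells, against 5.66, 5.38 and 6.15 in ICN2 negative cells. Its groups were separated by a narrow margin, but it did not pass (adjusted p = 0.129 in limma). Higher means were thus found for 2 of the 6 mast cell and basophil markers, Mcpt4 and Cma1. The 5 B cell markers tested summed to 622, 1765 and 1283 in ICN2 positive cells and to 2245 to 9525 in ICN2 negative cells. The 6 erythroid markers tested summed to 55200, 49520 and 52530 in ICN2 positive cells and to 51670 to 52150 in ICN2 negative cells. Megakaryocyte markers (5) summed to 1120, 2928 and 1891 in ICN2 positive cells and to 1670 to 6192 in ICN2 negative cells. Stem cell markers (4 tested) summed to 295.4, 701.2 and 687.2 in ICN2 positive cells and to 392.9 to 741.4 in ICN2 negative cells. The difference between 3′ and 5′ beta-actin probe sets was 1.01, 0.71 and 0.75 (log2) on the ICN2 positive arrays and 0.79 to 0.85 on the ICN2 negative arrays. For the transferrin receptor control it was 2.92, 2.93 and 2.86 on the ICN2 positive arrays and 2.89 to 3.28 on the ICN2 negative arrays. For the Gapdh control it was 0.73, 0.64 and 0.66 on the ICN2 positive arrays and 0.63 to 0.66 on the ICN2 negative arrays. For the pyruvate carboxylase control it was 1.97, 1.59 and 1.46 on the ICN2 positive arrays and 1.67 to 1.90 on the ICN2 negative arrays. Replicate 1 was thus the highest of the 6 for the actin, Gapdh and pyruvate carboxylase controls. It was not the highest for the transferrin receptor control. The 6 late neutrophil markers summed to 8995, 26800 and 24080 in ICN2 positive cells and to 23930 to 29980 in ICN2 negative cells. S100a8 and S100a9 are the brightest of them and weigh most in these sums. The median marker lay at -1.34, -0.60 and -0.38 (log2) from the ICN2 negative mean on ICN2 positive replicates 1 to 3. All 6 late neutrophil markers had lower means in ICN2 positive cells. Among them Mmp8 passed the test, with lower values in ICN2 positive cells (adjusted p = 0.00758 in limma). For 6 monocyte, macrophage and dendritic cell markers the sums were 996.6, 1830 and 1145, against 2285 to 3096 in ICN2 negative cells. Flt3 of that list passed and was lower (adjusted p = 0.00638 in limma), while 2 of the 6 had higher means. The part of these in the mitotic values of replicate 1 was not tested. Of the gate itself, Kit lay at 10.15, 10.70 and 10.86 (log2 intensity) in ICN2 positive cells and at 10.38 to 10.50 in ICN2 negative cells, and the lineage marker Itgam was below the 40th percentile on all 6 arrays. The 4 sorted progenitor markers (Kit, Gata2, Cd34 and Myb) summed to 16980, 24300 and 23340 in ICN2 positive cells and to 22280 to 24530 in ICN2 negative cells, lowest on replicate 1. The T cell marker Cd3e lay at 7.17, 7.52 and 6.16 in ICN2 positive cells, against 6.14, 5.40 and 5.27 in ICN2 negative cells, separated but not past the test (adjusted p = 0.116 in limma). All 4 tested T cell markers of 7 had higher means in ICN2 positive cells, with a median difference of 1.30, but none passed. Only Cd3e had groups that did not overlap. Their intensities summed to 437.2, 561 and 220.2 in ICN2 positive cells and to 144.7 to 242.3 in ICN2 negative cells, so replicate 3 lay within the ICN2 negative range.

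**Figure D2:**
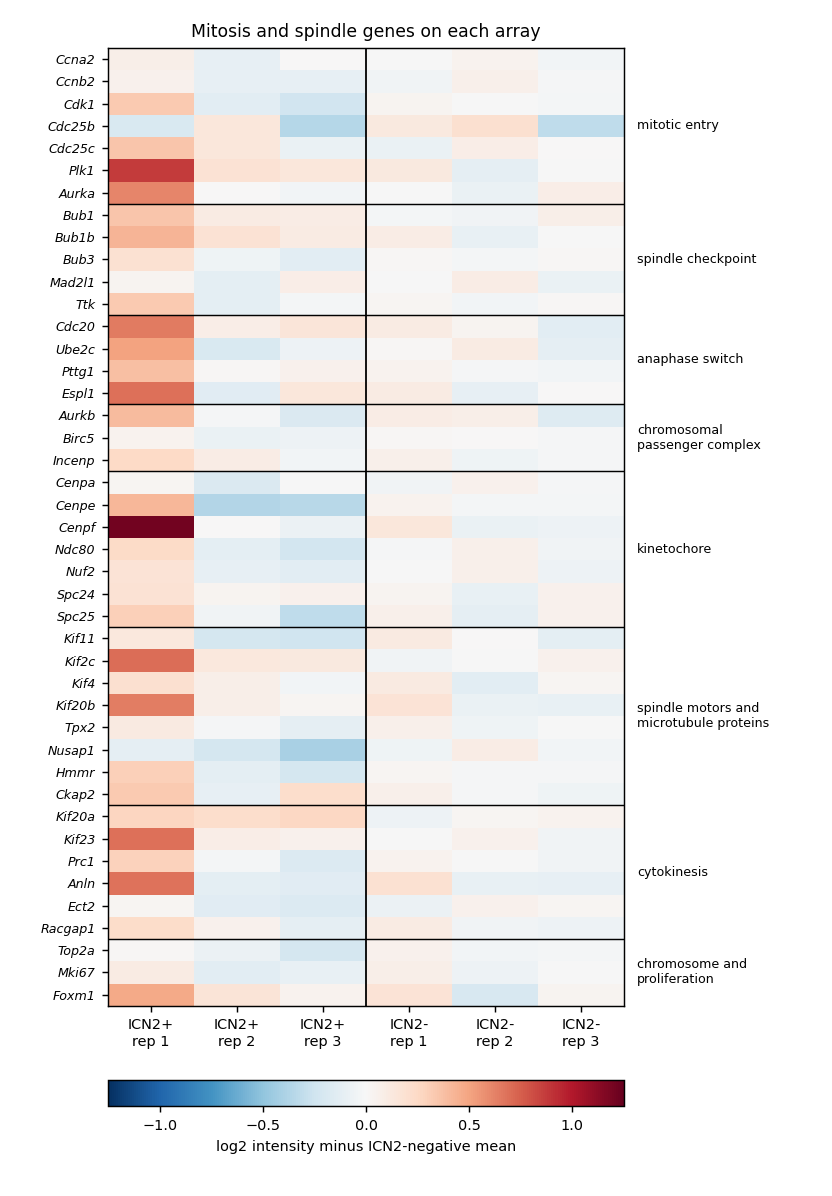
Log2 intensity of 43 mitosis and spindle genes minus the ICN2 negative mean of the gene, 1 row a gene grouped by role and 1 column an array, with the 3 ICN2 positive arrays on the left and the 3 ICN2 negative arrays on the right. ICN2 positive replicate 1 has the highest value in 36 rows, and Cenpf is highest there at 1.21 above the ICN2 negative mean.

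Of the genes for mitotic entry, 7 were measured and none passed. Cdk1, the kinase at the centre of the programme, lay at 12.63, 12.17 and 12.06 (log2 intensity) in ICN2 positive replicates 1 to 3, against 12.34, 12.29 and 12.27 in ICN2 negative cells. Its ICN2 positive values lay on both sides of the narrow ICN2 negative range. The difference was -0.01 ± 0.16 (SE, n = 3 per group), with an interval of -0.40 to 0.37. Ccna2, the cyclin of S phase and early mitosis, lay at 12.68, 12.51 and 12.61 in ICN2 positive cells and at 12.61, 12.65 and 12.57 in ICN2 negative cells, with overlap. Its interval was -0.19 to 0.17. A second, dimmer Ccna2 probe set differed by 0.11 ± 0.15. Ccnb2, a B-type cyclin, lay at 12.46, 12.31 and 12.31 in ICN2 positive cells and at 12.37, 12.47 and 12.39 in ICN2 negative cells. Its difference was -0.05 ± 0.08, and the groups overlapped.

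Plk1, the polo kinase of mitotic entry and spindle assembly, lay at 10.80, 10.10 and 10.06 in ICN2 positive cells, against 10.04, 9.80 and 9.91 in ICN2 negative cells. All ICN2 positive values were above all ICN2 negative ones, but replicates 2 and 3 by little. The difference was 0.40 ± 0.22 (adjusted p = 0.288 in limma), the greatest of the members, and 0.16 ± 0.09 without ICN2 positive replicate 1. Aurka, the Aurora kinase of the spindle poles, differed by 0.19 ± 0.19 and by -0.02 without that array. Its 2 probe sets both had their highest value in ICN2 positive replicate 1. The phosphatase genes Cdc25b and Cdc25c, which free Cdk1 of its inhibitory phosphate, differed by -0.14 ± 0.19 and 0.14 ± 0.12. On ICN2 positive replicate 1 Cdc25b was the lowest member, at -0.19 from its ICN2 negative mean, and its ICN2 negative values themselves ran from 10.56 to 11.07.

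The 5 spindle checkpoint genes were measured and none passed. Bub1b, which encodes the inhibitor BubR1, lay at 11.89, 11.65 and 11.57 in ICN2 positive cells, against 11.56, 11.38 and 11.46 in ICN2 negative cells. Bub1, the checkpoint kinase at the kinetochore, lay at 11.71, 11.45 and 11.45 in ICN2 positive cells, against 11.33, 11.31 and 11.43 in ICN2 negative cells. The groups of both genes were separated, by a narrow margin. The differences were 0.23 ± 0.11 for Bub1b and 0.18 ± 0.10 for Bub1 (adjusted p = 0.229 and 0.282 in limma). A second Bub1b probe set differed by 0.25 and the third by -0.02. Ttk, the kinase Mps1 that starts the checkpoint, differed by 0.06 ± 0.13. Mad2l1, the Mad2 protein that holds Cdc20 inactive, differed by -0.0015 ± 0.09, with an interval of -0.22 to 0.21. Bub3, which brings Bub1 and BubR1 to the kinetochore, differed by 0.0026 ± 0.10 in its brightest probe set, while its 5 probe sets ranged from -0.48 to 0.32, the widest spread among the members, and none passed. Without ICN2 positive replicate 1 a dim Bub3 probe set did pass, the only probe set of a member to do so when any single array was left out.

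The anaphase switch was read by 4 genes, none past the threshold. Each had a higher mean in ICN2 positive cells, as did 53.0% of all genes. Cdc20, the activator of the anaphase-promoting complex, lay at 12.02, 11.45 and 11.52 in ICN2 positive cells, against 11.47, 11.41 and 11.23 in ICN2 negative cells. The groups overlapped at ICN2 negative replicate 1. The difference was 0.29 ± 0.17 (adjusted p = 0.319 in limma). The other Cdc20 probe sets differed by 0.39 ± 0.11 (adjusted p = 0.110 over probe sets) and 0.33 ± 0.13 (adjusted p = 0.205 over probe sets), and in both the groups did not overlap. Among the members with 3 or more tested probe sets, Cdc20 had the narrowest range of differences between them.

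Ube2c, the ubiquitin-conjugating enzyme of the same complex, lay at 12.27, 11.58 and 11.70 in ICN2 positive cells, against 11.78, 11.88 and 11.66 in ICN2 negative cells. ICN2 positive replicate 1 was high and replicate 2 was the lowest of all 6. The difference was 0.08 ± 0.19. Espl1, the protease separase that cuts cohesin, differed by 0.23 ± 0.22, which became 0.0025 when ICN2 positive replicate 1 was left out. Pttg1, the securin that holds separase inactive, differed by 0.15 ± 0.11. The median of these 4 genes against the mean of ICN2 negative cells was 0.57 on ICN2 positive replicate 1, and -0.06 and 0.10 on replicates 2 and 3.

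The chromosomal passenger complex, which corrects faulty attachments and later directs cell division, was read by Aurkb, Birc5 and Incenp, and none passed. Birc5, the small subunit survivin, lay at 13.15, 13.03 and 13.05 in ICN2 positive cells, against 13.12, 13.11 and 13.09 in ICN2 negative cells. Its interval of -0.19 to 0.13 was narrow. The kinase gene Aurkb differed by 0.07 ± 0.17 and the scaffold gene Incenp by 0.10 ± 0.09. The 5 Incenp probe sets ranged from -0.12 to 0.31.

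Of 7 kinetochore genes none passed. Cenpf, a large protein of the outer kinetochore, lay at 9.87, 8.67 and 8.59 in ICN2 positive cells, against 8.81, 8.58 and 8.60 in ICN2 negative cells. The value of ICN2 positive replicate 1 stood more than 1 above every other value, and the other 5 overlapped. The difference of 0.38 ± 0.36 became -0.03 ± 0.10 without that array. A second Cenpf probe set was 0.65 above the ICN2 negative mean on the same array and the third 0.37.

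Cenpe, the kinesin that carries chromosomes to the metaphase plate, lay at 10.40, 9.61 and 9.64 in ICN2 positive cells, against 10.03, 9.96 and 9.96 in ICN2 negative cells. Replicate 1 was the highest of the 6 and replicates 2 and 3 the lowest. The difference was -0.10 ± 0.22 on all arrays and -0.36 ± 0.07 without ICN2 positive replicate 1 (interval -0.53 to -0.19, adjusted p = 0.0508 in limma). The second Cenpe probe set followed the same order, at 10.38, 9.61 and 9.53 in ICN2 positive cells, against 9.81, 9.80 and 9.87 in ICN2 negative cells. The Ndc80 complex, which grips the microtubule, was read by all 4 of its subunits. They differed by -0.04 ± 0.13 for Ndc80, -0.02 ± 0.10 for Nuf2, 0.09 ± 0.08 for Spc24 and -0.02 ± 0.17 for Spc25. Cenpa, the histone variant that marks centromeres, differed by -0.06 ± 0.08.

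The 8 spindle motors and microtubule proteins included the member with the lowest difference. Nusap1, which bundles spindle microtubules near chromosomes, lay at 11.94, 11.82 and 11.65 in ICN2 positive cells, against 11.99, 12.14 and 12.01 in ICN2 negative cells. The groups did not overlap, and ICN2 positive replicate 1 was closest to the ICN2 negative range. The difference was -0.24 ± 0.10 (adjusted p = 0.179 in limma), and -0.31 without that array. The second Nusap1 probe set lay at 8.51, 7.94 and 8.09 in ICN2 positive cells, against 8.55, 8.58 and 8.47 in ICN2 negative cells, with overlap at replicate 1 and a difference of -0.35 ± 0.16. Nusap1 was the only member whose groups were separated with lower values in ICN2 positive cells, a pattern held by 16.9% of all genes.

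Kif2c, the kinesin MCAK that shortens microtubules, lay at 9.88, 9.31 and 9.30 in ICN2 positive cells, against 9.14, 9.17 and 9.23 in ICN2 negative cells. The groups did not overlap, and the difference was 0.32 ± 0.17 (adjusted p = 0.290 in limma). Its 4 probe sets differed by 0.15 to 0.66. A dimmer one lay at 6.84, 6.62 and 6.55 in ICN2 positive cells, against 5.84, 6.13 and 6.05 in ICN2 negative cells, the smallest adjusted p of any member's probe set at 0.0547 over probe sets in limma. No member probe set passed in limma, of 88 tested, against 2.65% of all probe sets, and 4 of the 88 had an unadjusted p under 0.05, against 24.3% of all probe sets. Of 27 members with several tested probe sets, 8 had differences of both signs.

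Kif11, the motor Eg5 that pushes spindle poles apart, differed by -0.11 ± 0.13 and had lower means in all 3 of its probe sets. Tpx2, which activates Aurora A on the spindle, differed by -0.005 ± 0.08. Kif20b, a mitotic kinesin, differed by 0.25 ± 0.19 and Ckap2, a spindle protein, by 0.15 ± 0.13. Hmmr, a spindle pole protein, differed by -0.02 ± 0.14 in its brightest probe set. A dimmer Hmmr probe set stood at 8.43 in ICN2 positive replicate 1 and at 6.77 to 7.12 on the other 5 arrays. Kif4, a chromosome-bound kinesin and the only member on the X chromosome, differed by 0.08 ± 0.10 between the male ICN2 positive and the female ICN2 negative cells.

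Cytokinesis genes held the member with the smallest adjusted p. Kif20a, a kinesin of the midzone between the separating chromosomes, lay at 10.15, 10.10 and 10.14 in ICN2 positive cells, against 9.81, 9.90 and 9.92 in ICN2 negative cells. The groups did not overlap, and ICN2 positive replicate 1 was level with the other ICN2 positive arrays. The difference was 0.25 ± 0.06, or 1.19-fold with an interval of 1.07-fold to 1.33-fold (adjusted p = 0.0841 in limma). Without ICN2 positive replicate 1 it was 0.24 (adjusted p = 0.123). At an adjusted p of 0.1 Kif20a was the only member that passed, when 12.5% of all genes did. A single probe set reads Kif20a, so no second reading bears on it.

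Kif23, the motor of centralspindlin, lay at 10.90, 10.30 and 10.27 in ICN2 positive cells, against 10.21, 10.27 and 10.17 in ICN2 negative cells. The groups touched without overlap, and the difference was 0.28 ± 0.18. Racgap1, its partner in that complex, differed by 0.06 ± 0.11, and Ect2, the exchange factor that the complex brings to the cell equator, by -0.09 ± 0.08. Prc1, which crosslinks midzone microtubules, differed by 0.03 ± 0.13 and the ring scaffold gene Anln by 0.14 ± 0.25. Higher means in ICN2 positive cells were found for 5 of the 6 genes, without a call, and for 53.0% of all genes.

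Of the genes used as marks of proliferation none passed. Mki67, the gene of the Ki-67 antigen, lay at 12.66, 12.43 and 12.47 in ICN2 positive cells, against 12.64, 12.50 and 12.56 in ICN2 negative cells. Its interval was -0.26 to 0.18. Top2a, the topoisomerase that untangles sister chromatids, lay at 12.43, 12.34 and 12.19 in ICN2 positive cells, against 12.47, 12.38 and 12.39 in ICN2 negative cells, a difference of -0.09 ± 0.08. Both genes had overlapping groups. Foxm1, the transcription factor of the mitotic programme, lay at 8.72, 8.41 and 8.30 in ICN2 positive cells and at 8.42, 8.05 and 8.28 in ICN2 negative cells, a difference of 0.23 ± 0.15.

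**Figure D3:**
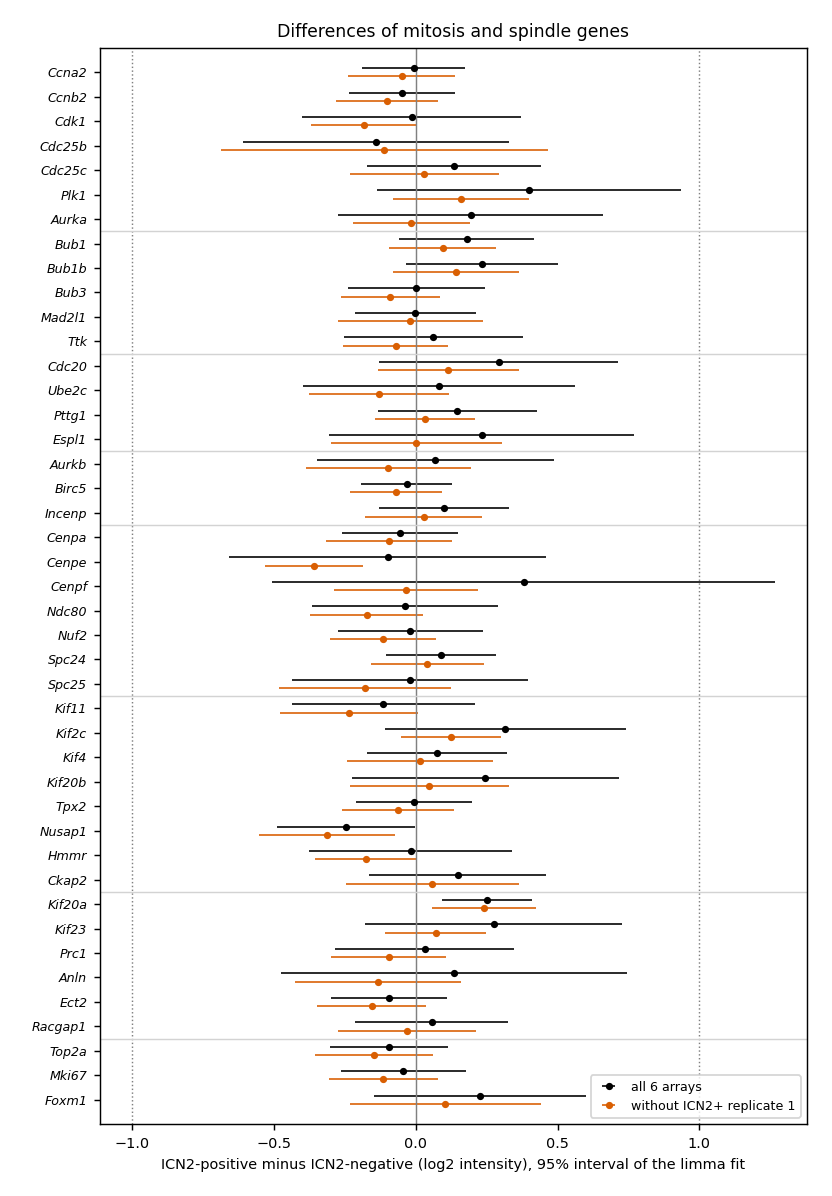
Difference between ICN2 positive and ICN2 negative cells (log2) for 43 members with 95% intervals of the limma fit, on all 6 arrays (black) and without ICN2 positive replicate 1 (orange), with dotted lines at a 2-fold change. On all arrays 42 intervals lie inside the dotted lines, and without replicate 1 all 43 do.

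Other genes of the pathway were read in 7 lists with 127 genes tested, and none passed in limma over all genes, against 4.36% of all genes. The 20 condensin and cohesin genes had a median difference of -0.0063, and the smallest p was that of the cohesin release factor gene Wapl, at -0.21 ± 0.08. The 24 tested of 25 other kinetochore and centromere genes had a median of 0.08, with Ska3, of the Ska microtubule-coupling complex, at 0.30 ± 0.10. The 15 genes of the anaphase-promoting complex and its regulators had a median of 0.08, with the subunit gene Anapc4 at 0.32 ± 0.08 (adjusted p = 0.0842 in limma). Of these 15 genes 13 had higher means, against 53.0% of all genes.

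The 15 centrosome and spindle pole genes had a median of 0.10, with the centrosome scaffold gene Cep192 at 0.17 ± 0.06. The 10 entry brakes and partners, a mixed list that includes the phosphatase gene Cdc25a, had a median of 0.05. In it Gtse1, a microtubule protein of late cell cycle phases, lay at 0.55 ± 0.18 (adjusted p = 0.129 in limma). The 14 genes listed as DREAM, MuvB and B-Myb regulators, which include the NF-Y genes Nfya, Nfyb and Nfyc, had a median of -0.0039. In that list the pocket protein gene Rbl2 lay at -0.28 ± 0.08. The 29 DNA replication genes, which act before mitosis, had a median of -0.04, with Gins1, a subunit of the replicative helicase, at -0.18 ± 0.06. None of these 7 named genes passed. At an unadjusted p under 0.05 the 7 lists held 1, 2, 3, 2, 1, 1 and 2 genes, in the order given, against 27.4% of all genes.

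The high values of ICN2 positive replicate 1 were seen in some of these lists. On that array the median of the other kinetochore genes was 0.18 above the ICN2 negative mean, that of the anaphase-promoting complex 0.16 and that of the centrosome genes 0.16. The DNA replication genes lay at -8e-04 and the condensin and cohesin genes at -0.0047. The entry brakes and partners lay at 0.04 and the DREAM and MuvB regulators at -0.10. The array was the highest of the 6 for 66.7% of the other kinetochore genes, 66.7% of the anaphase-promoting complex and 53.3% of the centrosome genes. It was the highest for 40% of the entry brakes and partners, 35% of condensin and cohesin and 28.6% of the DREAM and MuvB regulators. For the replication genes the share was 20.7%, and for all genes 31.9%. For the 43 members the same median was 0.29, and for all genes tested it was 0.04. Whether the lists differ on that array was not tested, since it is a single sample.

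**Figure D4:**
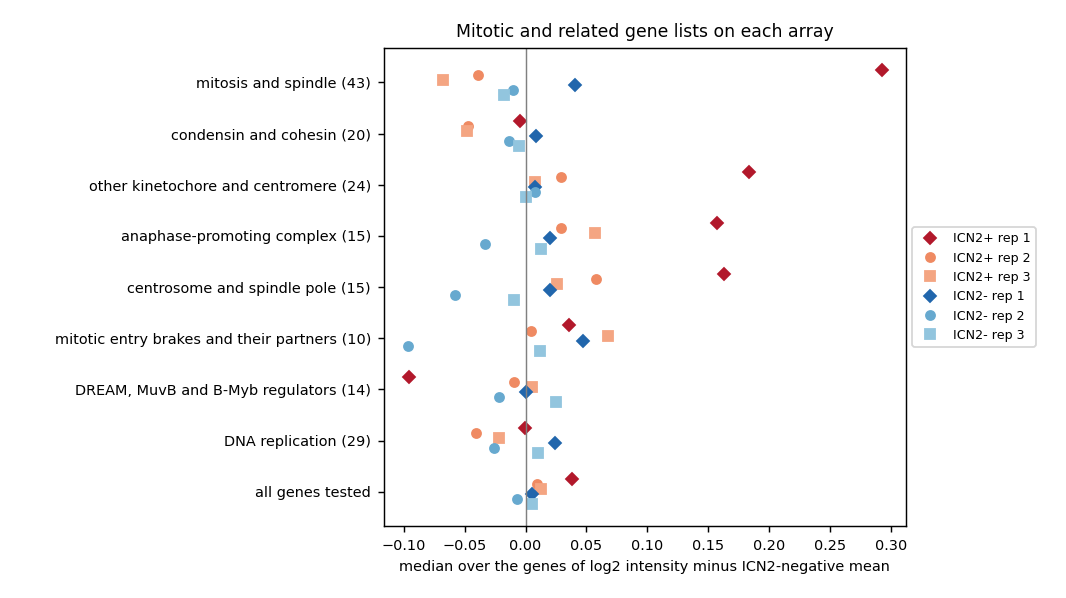
Median over the genes of each list of log2 intensity minus the ICN2 negative mean, 1 point an array, for the 43 mitosis and spindle genes, 7 related lists and all genes tested, with the 3 ICN2 positive arrays in red shades and the 3 ICN2 negative arrays in blue shades. ICN2 positive replicate 1 is at 0.29 for the mitosis and spindle genes and at -8e-04 for DNA replication.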

How the data were processed

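RNA of 6 samples was measured on Affymetrix mouse arrays, after amplification of 5 ng of total RNA per sample, per the labels' protocols. The deposited table holds 1 intensity per probe set and array, made by the authors with RMA, per the submitters' processing notes. Which version of RMA was used is not given in the sources here. The deposited intensities were on a linear scale, and log2 was taken here. No measured background was used here.

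Probe sets with a single annotated gene were used, and those that exceeded the 40th percentile of intensity on 3 or more of the 6 arrays were tested. Each gene takes the values of its brightest probe set on average. Groups came from the labels. Groups were compared in R 4.3.3 by lmFit and eBayes of limma 3.58.1, with no covariate and with Benjamini-Hochberg adjustment over all 12837 genes and a threshold of 0.05. It gave every adjusted p, standard error and 95% interval, and probe sets were fitted in the same way. The script was tested on simulated data. Promoter windows were searched in Python 3.11.15. All members are described, and of each further list the genes past the threshold or, with none, the gene of smallest p. The members and lists were chosen with earlier results of these data known. Alternatives covered the filter, normalization, variance model, array weights, probe set choice, replicate block, threshold and each array left out. Scanner files were not analysed here.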

Additional observations from a re-analysis of the deposited data

How the results depend on the processing

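Of 16 alternatives at the same threshold, 15 gave no member past it, with the smallest adjusted p of a member at 0.0508 (Cenpe, without ICN2 positive replicate 1) to 0.215 (Kif20a, without ICN2 negative replicate 2) in limma. The exception was array weights, which gave ICN2 positive replicate 1 a weight of 0.238 and replicate 3 a weight of 5.72. With them 2 members passed, Kif20a at 0.25 (adjusted p = 0.0184) and Nusap1 at -0.36 (adjusted p = 0.0199), when 3262 genes in all (25.4%) did. At an adjusted p of 0.1, 1 member (Kif20a) and 1601 genes passed, and at 0.01 no member and 105 genes. The median difference of the members was -0.06 to 0.13 with 1 array left out and -0.03 with array weights. The sign of the difference changed for 14 members with array weights, for 9 without ICN2 positive replicate 1, for 9 without replicate 2 and for 7 without replicate 3. With 1 array left out 99 to 768 genes passed, 0 to 1 probe sets of members (the 1 without ICN2 positive replicate 1, of Bub3), and 0 members and other pathway genes. Same-numbered arrays deviated together with correlations of 0.18, 0.14 and 0.09 over all genes, and of 0.39, 0.31 and 0.17 over the members. Of 6 arrays 4 correlated best with their own number. The numbers were not taken as pairs, since not every correlation over all genes was above 0.1. With the replicate block 340 genes passed, no member (smallest adjusted p = 0.134, Kif20a, in limma) and no other pathway gene. Without probe sets whose names end in _a_at, _s_at or _x_at, 34 members were tested and Kif20a was not among them. Hmmr was then at 0.36, Bub3 at 0.32 and Kif2c at 0.15, against -0.02, 0.0026 and 0.32 in the main fit. None passed (smallest adjusted p = 0.0940, Cdc20, in limma). No measured background was used here, so how far a probe set lay above it is not known.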
